A study of Homo sapiens with 16 samples.

Results

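The genes of the nucleosome remodelling and deacetylase (NuRD) complex were examined for regions bound by BCL11A or ZBTB7A. Both factors carry zinc fingers and silence γ-globin, the fetal β-like globin, in adult red cells. The 10 genes were taken by name as core subunits, out of 19343 protein-coding genes in the deposited annotation. They are CHD4, MTA1, MTA2, MTA3, HDAC1, HDAC2, MBD2, MBD3, GATAD2A and GATAD2B. For each gene, regions of all 4 deposited peak lists were collected at its promoter (within 1 kb of the start of a protein-coding transcript), in its gene body and in 20 kb on each side. This gave 32 of 12911 regions for BCL11A in HUDEP-2 cells, 31 of 17331 for ZBTB7A in K562 cells, 27 of 18784 for ZBTB7A in 195C>G HUDEP-2 cells and 64 of 36435 for ZBTB7A in WT HUDEP-2 cells.

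NuRD joins an ATP-driven nucleosome remodeller, CHD4, to the histone deacetylases HDAC1 and HDAC2. MTA proteins hold the deacetylases, MBD2 or MBD3 gives separate forms of the complex, of which MBD2 recognises methylated DNA, and GATAD2A or GATAD2B ties CHD4 to the rest. BCL11A and ZBTB7A are both known to bring NuRD to DNA, and loss of NuRD subunits raises γ-globin in erythroid cells. In earlier published work on HUDEP-2 cells, CHD4, MTA2, HDAC2, MBD2 and GATAD2A were the subunits needed to keep γ-globin silent. The present data show where these repressors lie on the subunit genes, and not the NuRD complex itself or the expression of its genes.

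Chromatin immunoprecipitation with sequencing (ChIP-seq) gave 8 ChIP and 8 control libraries. HUDEP-2 is an immortal human erythroid precursor line and K562 a human erythroleukaemia line. The BCL11A libraries came from HUDEP-2 cells with the BCL11A-ER-V5 system, induced by 4-hydroxytamoxifen for 24 h and precipitated through the V5 tag (2 ChIP and 2 control libraries). K562 cells, with no treatment labelled, were precipitated with ZBTB7A antibodies (4 ChIP and 4 control libraries). HUDEP-2 (ΔGγ) cells were also precipitated with ZBTB7A antibodies, 1 ChIP and 1 control library from cells with a 195C>G change in the γ-globin promoter and 1 and 1 from cells without it, called WT. Both of these lines share the ΔGγ deletion, which removes the Gγ-globin gene HBG2. All HUDEP-2 cells grew with SCF, EPO, dexamethasone and doxycycline. The tagged BCL11A is an introduced protein, and the sources used here do not say whether any modified line is a single clone. The control libraries are titled input, while their antibody label names an immunoglobulin. The BCL11A and K562 lists each pool their replicates, and the other lists hold 1 library each, so no spread between replicates exists, no test was possible and read depth is unknown. A peak list measures binding, so the identity of the cells could not be checked against expressed markers.

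A region's rank is its place in its own list, by the authors' score in the BCL11A list, by the authors' signal in the 195C>G and WT lists, and by file order in the K562 list, which holds no value per region. A rank is also given as a percentage of the list's length, a low percentage being near the top. Values and ranks were set side by side only within a list. Positions are hg38 and counted from 1. MTA2 lies on chromosome 11, where the 195C>G and WT lists use a modified sequence, so its positions in those lists are 4928 bp lower than in hg38.

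Upstream sequences of 5 windows are shown because each lies at least partly under some of the regions on which the account below turns. They come from RefSeq on GRCh38.p14, whose table held 13 windows for the 10 genes, from 250 bases before a transcript start to 50 bases after it. Bases at or after any annotated start nearby are left out. Capitals mark GACCC or its reverse complement GGGTC, letters known from ZBTB7A binding sites. MTA2 is chr11:62601866-62602115, minus strand. HDAC2 is chr6:113971196-113971398, minus strand. MBD2 is chr18:54224789-54224919, minus strand. MBD3 is chr19:1592866-1593115, minus strand. GATAD2A is chr19:19405425-19405674, plus strand, before an internal start.
MTA2: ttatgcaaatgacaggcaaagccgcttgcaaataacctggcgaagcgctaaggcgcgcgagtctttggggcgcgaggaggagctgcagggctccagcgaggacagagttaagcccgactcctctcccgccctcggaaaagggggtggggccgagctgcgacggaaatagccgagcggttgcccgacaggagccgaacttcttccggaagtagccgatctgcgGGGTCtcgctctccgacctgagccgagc
HDAC2: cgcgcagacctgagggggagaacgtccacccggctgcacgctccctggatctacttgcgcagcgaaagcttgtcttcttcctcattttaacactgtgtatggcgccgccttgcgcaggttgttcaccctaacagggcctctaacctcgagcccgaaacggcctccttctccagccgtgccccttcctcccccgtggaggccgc
MBD2: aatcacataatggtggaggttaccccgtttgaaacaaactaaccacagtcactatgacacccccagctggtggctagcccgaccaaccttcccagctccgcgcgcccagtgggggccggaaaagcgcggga
MBD3: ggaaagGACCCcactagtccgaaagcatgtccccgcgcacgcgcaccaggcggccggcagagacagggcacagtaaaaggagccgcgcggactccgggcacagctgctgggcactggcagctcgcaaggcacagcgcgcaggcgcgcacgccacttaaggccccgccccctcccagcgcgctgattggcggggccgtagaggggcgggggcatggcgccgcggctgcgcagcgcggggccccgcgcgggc
GATAD2A: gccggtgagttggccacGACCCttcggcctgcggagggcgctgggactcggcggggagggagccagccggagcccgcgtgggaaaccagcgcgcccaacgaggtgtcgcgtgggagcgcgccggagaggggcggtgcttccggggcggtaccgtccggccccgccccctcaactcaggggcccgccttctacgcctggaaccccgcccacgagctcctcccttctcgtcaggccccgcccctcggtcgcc

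The MTA2 bases were wholly covered by its K562, 195C>G and WT regions, and the BCL11A region reached 10 of the 250. The 131 MBD2 bases were wholly covered by 195C>G and WT regions, over 60 bases by BCL11A and over 0 by K562. At MBD3 the 195C>G and WT regions covered all 250 bases and the K562 region 163. BCL11A covered 199 of them, with rank 7326 as its best region there. The match in the MBD2 window lies past its start and is not shown, and both GATAD2A starts have one. The HDAC2 stretch of 203 bases holds no capitals, although it was covered throughout by the K562 and WT regions and over 50 bases by the 195C>G region. GACCC, searched on both strands, occurred in 9 of the 13 windows of 300 bases at these genes and in 51.6% of 20698 windows of protein-coding genes. TGACC, a core of the BCL11A motif, was in none of the 13 and in 35.3% of all windows. TGACCA, which contains TGACC, was likewise in none of the 13 and in 9.18% of all windows. The longer element of the γ-globin promoter that ZBTB7A binds was in none of the 13 and in 1.53% of all. The GATA1 letters AGATAA and TGATAA were in none of the 13, and in 7.92% and 5.59% of all windows. GACCC and TGACC share GACC and can overlap. These counts say only which letters stand in these windows.

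The first question was which NuRD genes carried either repressor at their promoters. BCL11A had a promoter region at 6 of the 10 genes (CHD4, MTA2, HDAC1, MBD2, MBD3 and GATAD2A), against 24.4% of all protein-coding genes. ZBTB7A in K562 had one at 8 (all but CHD4 and MTA3), against 33.2% of all genes. In 195C>G cells it had one at 7 (MTA2, MTA3, HDAC2, MBD2, MBD3, GATAD2A and GATAD2B), against 29.1%, and in WT cells at 7 (with HDAC1 in place of MTA3), against 44.9%. By the deposited annotation, each of these 10 members had a promoter region in at least 1 list, MTA3 only in 195C>G. Of all genes, 45.1% had none in any. MTA2, MBD2, MBD3 and GATAD2A had one in all 4 lists, as did 10.0% of all genes. HDAC2 and GATAD2B joined them in having one in all 3 ZBTB7A lists, as did 20% of all genes. Among genes with a promoter region in at least 1 list, which include all 10 NuRD genes, the bound shares were 44.5% for BCL11A, 60.5% in K562, 53.1% in 195C>G and 81.7% in WT. Against these the NuRD share of 70.0% in WT stood below, and the other 3 NuRD shares above.

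**Figure D1:**
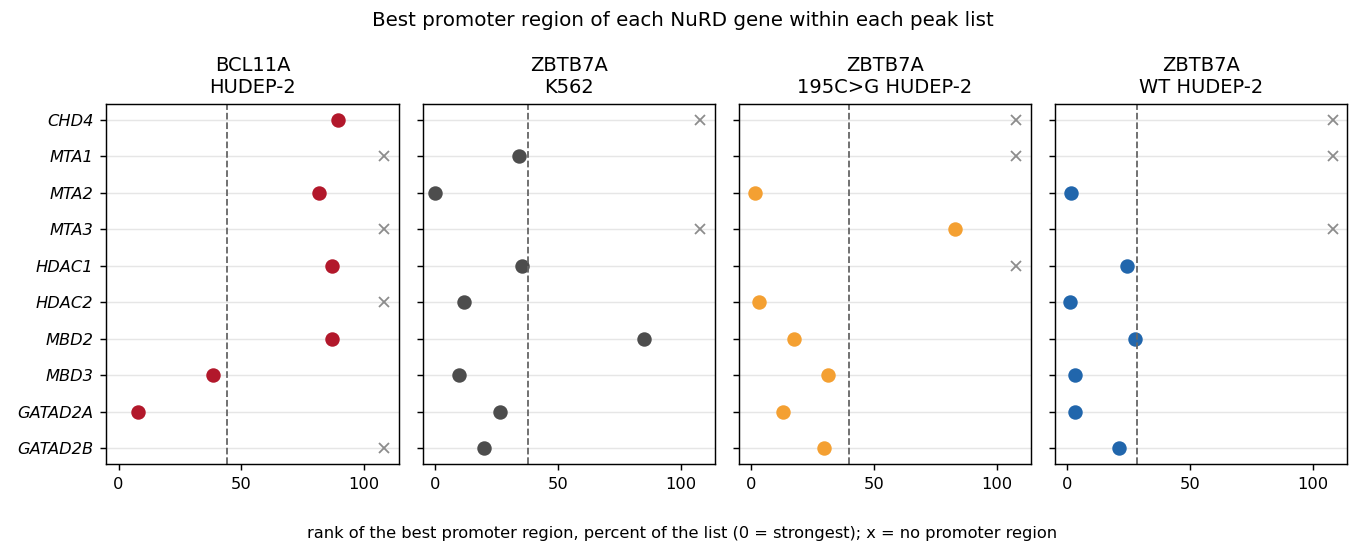
Each panel is 1 peak list. The x axis gives the rank of a gene's best promoter region as a percentage of the list (0 is the top, by file order in K562). Each point is 1 gene and a cross marks no promoter region. The dashed line is the median over all genes with a promoter region in that list. In the BCL11A panel 4 of 6 points lie to the right of the dashed line, at over 80% of that list. In the WT panel all 7 lie to its left, below 28% of that list.

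Most BCL11A regions at NuRD promoters stood low in their list. The BCL11A regions of MTA2, HDAC1, MBD2 and CHD4 ranked 10553, 11200, 11206 and 11540 of 12911, with scores of 17.7, 16.4, 16.4 and 15.8. MBD3 ranked 4990 with a score of 36.7, and GATAD2A ranked 1020 with a score of 115. So GATAD2A was the 1 NuRD promoter in the first 10% of the BCL11A list, a place held by 2.70% of all genes. The median rank of the 6 promoters was 84.2% of the list, against 44.0% for all genes with a BCL11A promoter region. In the stronger 50% of the list, BCL11A kept 2 of the 10 genes, against 13.8% of all genes.

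Most ZBTB7A regions at NuRD promoters stood in the upper part of their own lists, which in K562 is file order only. In K562 the median of the 8 bound promoters was 23.3% of the list, against 37.9% for all bound genes, and 1 of them was in the first 10% (4.61% of all genes). In 195C>G cells the median of 7 was 17.6%, against 40.0%, with 2 in the first 10% (3.80% of all genes). In WT cells the median of 7 was 3.15%, against 28.5%, with 4 in the first 10% (9.41% of all genes). These 4 were HDAC2, MTA2, GATAD2A and MBD3. The stronger 50% of the lists kept 7 of 10 genes in K562 (20.8% of all genes), 6 in 195C>G (17.8%) and 7 in WT (32.8%). The lists differ in length and in the value that ranks them, so the medians are not compared with each other.

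CHD4 (chromosome 12, 6570082 to 6607433, minus strand) encodes the remodelling ATPase at the centre of the complex. Its promoter had a BCL11A region only, from 6607193 to 6607562 on chromosome 12, with its midpoint 56 bp downstream of the outer start, in the 5′ UTR. No ZBTB7A list had a region within 1 kb of either of its starts. K562 had none anywhere in the gene or its flanks. Both HUDEP-2 ZBTB7A lists had a region at the far end of the gene, in the 3′ UTR, at rank 12238 in 195C>G (signal 34.2) and 18072 in WT (signal 25.7). A BCL11A region upstream, from 6614185 to 6614554 (rank 5401, score 34.4) was overlapped by a 195C>G region (rank 10915) and by none in WT. CHD4 was thus the 1 member with a BCL11A and no ZBTB7A promoter region, a pattern for which no share over all genes is given. That BCL11A region stood at rank 11540 of 12911, and the call was lost in the stronger 50% of the list.

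MTA1, MTA2 and MTA3 encode the scaffold proteins that bind the deacetylases, and they differed widely. MTA2 (chromosome 11, 62593203 to 62601840 in hg38, minus strand) had the best ZBTB7A rank of any NuRD gene in K562 and in 195C>G. Its K562 region stood at rank 44 of 17331 (62601531 to 62602254, hg38). Its 195C>G region ranked 306 with a signal of 149, and its WT region ranked 504 with a signal of 127, with summits 120 and 124 bp upstream of the start. The BCL11A region there (62601506 to 62601875, rank 10553) overlapped all of them but was centred 150 bp downstream of the start. A further site in an intron of MTA2 was shared by the 3 ZBTB7A lists, at ranks 7094 in K562, 9887 in 195C>G and 15319 in WT.

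MTA1 (chromosome 14, 105419849 to 105470720, plus strand) differed from MTA2. BCL11A had 9 regions across its locus, more than at any other of the 10 genes, or 9.90 per 100 kb, a density reached by 2.73% of all genes. Only 3 of the 9 lay in the gene body. The other 6 lay in flanks, several of them at or in neighbouring genes, whereas GATAD2A had 5 in its body and 1 at its promoter. The HUDEP-2 ZBTB7A lists had 0 regions at the MTA1 locus, in 195C>G and in WT, and 0 within 50 kb on each side. Within 100 kb each of them had 2. The strongest BCL11A region inside MTA1 lay in an intron, at 105452168 to 105452505 on chromosome 14 (rank 195, score 314). A stronger one (rank 80, score 479, 105476031 to 105476947) lay past the end of MTA1 in the gene body of CRIP2, a neighbouring gene. No BCL11A region lay within 1 kb of the MTA1 start, and the closest was centred at 1238 bp downstream, just outside that limit. ZBTB7A in K562 had an MTA1 promoter region at rank 5953 (105419523 to 105419914), and 1 of the 5 K562 regions of the locus overlapped a BCL11A region.

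MTA3 had the fewest regions for its length. Its body spans 262 kb (chromosome 2, 42494569 to 42756947, plus strand), and no BCL11A or WT region lay in it or its flanks. K562 had 1 region in the body (rank 15157) and 1 in a flank (rank 12024). Its single promoter region, in 195C>G, stood at rank 15637 of 18784 with a signal of 29.2, centred 538 bp downstream of an internal start, and it fell outside a window of 0.5 kb. The library behind it had no replicate. No region of any list lay within 1 kb of either MTA3 start in RefSeq, at 42494110 and 42568045.

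HDAC1 and HDAC2 encode the paired deacetylases. HDAC2 (chromosome 6, 113936156 to 113971195, minus strand) had strong ZBTB7A promoter regions in HUDEP-2 cells, at rank 636 in 195C>G (signal 122, 113971349 to 113971782 on chromosome 6) and rank 358 in WT (signal 140, 113971053 to 113971823). In K562 it ranked 2060 (113970930 to 113971747). These 3 regions overlapped, while the nearest BCL11A region was 112257 bp from the HDAC2 start. A weak second 195C>G region (rank 17263) was centred 999 bp downstream of the start, just inside the limit. Another site in the flank, with points 50138 to 50183 bp downstream of the start and past the end of the gene, was shared by the 3 ZBTB7A lists.

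HDAC1 (chromosome 1, 32292107 to 32333623, plus strand) had promoter regions of lower rank than HDAC2 in K562 and WT. Its promoter carried BCL11A at rank 11200, ZBTB7A in K562 at ranks 6172 and 16695, and ZBTB7A in WT at rank 8804 with a signal of 40.3. No 195C>G region lay within 1 kb of its start. Of WT regions in the same decile of rank, 74.8% were overlapped in 195C>G. A site from 58857 to 60304 bp downstream of the HDAC1 start, past its end and in no protein-coding transcript, was found in all 4 lists once overlapping regions were joined. It stood at rank 1463 for BCL11A (score 91.7), 1255 in K562, 6188 in 195C>G (signal 50.0) and 6821 in WT (signal 46.5). The BCL11A region there (32351739 to 32351916) overlapped the 195C>G and WT regions and no K562 region.

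MBD2 and MBD3 encode the alternative methyl-CpG-binding-domain subunits, and both promoters carried both repressors. At MBD2 (chromosome 18, 54151601 to 54224788, minus strand) the regions met at the start of the gene. The 195C>G region ranked 3300 with a signal of 67.3, and the best WT region ranked 10088 with a signal of 37.3. K562 ranked 14752 and BCL11A 11206. MBD2 had no BCL11A, K562 or 195C>G region beyond its promoter, and 2 further WT regions in introns (ranks 25066 and 31750), the nearer centred 1164 bp from the start.

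At MBD3 (chromosome 19, 1576671 to 1592761, minus strand) ZBTB7A stood at rank 1735 in K562, 5890 in 195C>G (signal 51.4) and 1148 in WT (signal 99.0). BCL11A had 3 regions at this promoter, at ranks 4990 and 4991 with scores of 36.7 each and at rank 7326 with a score of 26.1. Those of the first pair overlap and lie 55 to 628 bp downstream of the start, in an intron, and the last (1592917 to 1593286) lies upstream. The WT regions at the promoter reached no further than 18 bp downstream, and those of K562 and 195C>G reached 185 and 163 bp downstream. A further 3 WT regions lay in an intron, from 1086 to 2138 bp downstream (best rank 10677). The MBD3 locus held 14.3 regions per 100 kb for BCL11A (a density reached by 0.978% of all genes), 1.78 in K562 (38.7%), 5.35 in 195C>G (11.9%) and 28.5 in WT (1.14%). It was thus dense for BCL11A and WT and not in K562, with overlapping regions counted apart. In the flanks lay 5 of the 8 BCL11A and 11 of the 16 WT regions. The flanks hold promoters of neighbouring genes, among them that of MEX3D, where 3 of the 4 lists had regions, K562 being the exception.

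GATAD2A and GATAD2B encode the subunits that link CHD4 to the MBD and MTA proteins, and these paralogs have bodies of similar length (123 and 118 kb). GATAD2A lies on chromosome 19 (19385833 to 19508932, plus strand) and GATAD2B on chromosome 1 (153804907 to 153922975, minus strand). GATAD2A held 7 BCL11A, 6 K562, 9 195C>G and 22 WT regions. GATAD2B held 0, 1, 2 and 1 in the same lists. All 3 ZBTB7A lists had an overlapping region at the GATAD2B promoter, at rank 3501 in K562, 5593 in 195C>G (signal 52.7) and 7624 in WT (signal 43.7). BCL11A had no region at GATAD2B or within 20 kb of it.

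The GATAD2A promoter held regions at separate sites on either side of the start. The upstream site carried BCL11A at rank 1020 (19385249 to 19385525 on chromosome 19, score 115), K562 at rank 4578 (19385163 to 19385601) and WT at rank 1110 (signal 99.9). The downstream site, 147 to 1248 bp past the start, carried K562 at rank 5120, 195C>G at rank 2405 (signal 76.7) and WT at rank 1933 (signal 81.9). The downstream site had no BCL11A region and the upstream site no 195C>G region. With a window of 0.5 kb GATAD2A lost its 195C>G call, because the downstream summits lie 517 and 908 bp from the start. Of WT regions in the first 10% of that list, 96.0% were overlapped in 195C>G, and on chromosome 19 the share was 85.2%.

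Inside GATAD2A the best BCL11A region of the whole locus lay at 19405311 to 19405611 (rank 976, score 119). It was in an intron by the deposited annotation. RefSeq on GRCh38.p14 places a further GATAD2A start at 19405675, 19842 bp from the nearest start in the deposited annotation, and it is the sequence shown for GATAD2A. Within 1 kb of that start were 1 BCL11A, 3 195C>G (best rank 7186) and 4 WT regions (best rank 5296), and no K562 region. BCL11A covered 187 of the 250 upstream bases, 195C>G 142 and WT all of them. The site 76234 to 76888 bp downstream of the outer start was also shared by the HUDEP-2 lists, at rank 4179 for BCL11A, 6933 in 195C>G and 1796 in WT. A site at 102561 to 103223 bp was too, at ranks 2343, 14256 and 23056. K562 had a region at neither, and instead shared a site from 58692 to 59481 bp with 195C>G and WT (ranks 6075, 9955 and 8625).

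**Figure D2:**
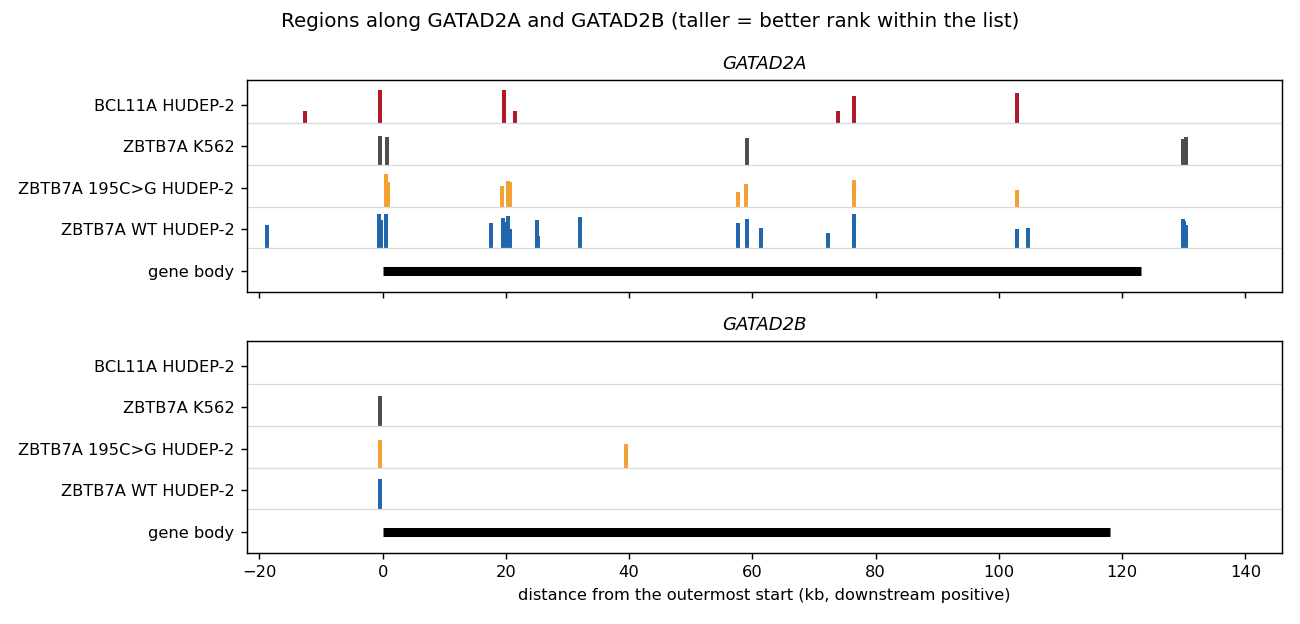
Regions along GATAD2A and GATAD2B by distance from the outermost start in kb, 1 row per peak list, with each bar at a summit or midpoint and taller bars for better ranks within the list. GATAD2A carries 22 WT regions over its body and flanks and GATAD2B 1.

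The subunits needed for γ-globin silencing in the earlier work (CHD4, MTA2, HDAC2, MBD2 and GATAD2A) were set beside the other 5. BCL11A had promoter regions at 4 of 5 and 2 of 5. ZBTB7A had them at 4 and 4 in K562, 4 and 3 in 195C>G, and 4 and 3 in WT. In the stronger 50% of the lists the counts were 1 and 1 for BCL11A, 3 and 4 in K562, 4 and 2 in 195C>G, and 4 and 3 in WT. No test of these differences was made.

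Over all 10 loci, 8 of the 32 BCL11A regions were at promoters, 8 in gene bodies and 16 in flanks. The K562 list had 11, 3 and 17, the 195C>G list 10, 10 and 7, and the WT list 11, 23 and 30. BCL11A had at least 1 region at 7 loci (48.7% of all genes), K562 at 9 (57.4%), 195C>G at 9 (53.6%) and WT at 8 (68.6%). Of the flank regions, 9 of 16, 9 of 17, 4 of 7 and 16 of 30 lay within 1 kb of the start of a neighbouring gene. Among those in the first 10% of a list, EML3 and ROM1, which share a region beside MTA2, had rank 820 in K562 and rank 2507 in WT. MARCKSL1 beside HDAC1 stood at rank 1512 in K562, and MEX3D beside MBD3 at rank 3533 in WT.

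Overlap of the repressors was then counted at these loci. Of the 32 BCL11A regions, 9 (28.1%, 95% exact binomial interval 13.7 to 46.7%) met a region of the K562 list, against 31.9% of all BCL11A regions. By 195C>G regions 11 were overlapped (34.4%, 18.6 to 53.2%), against 39.6%, and by WT regions 16 (50.0%, 31.9 to 68.1%), against 57.5%. As a share of the ZBTB7A regions, 9 of 31 in K562, 11 of 27 in 195C>G and 23 of 64 in WT were overlapped by BCL11A (29.0, 40.7 and 35.9%), against 24.1, 29.3 and 25.0% of the whole lists. Each whole-list share lay within the counting interval of the share at the NuRD loci. Between ZBTB7A lists, 15 of 31 K562 regions (48.4%) met a 195C>G region and 22 (71.0%) a WT region, against 46.2 and 62.5% of the whole list. Conversely, 15 of 27 195C>G regions (55.6%) and 25 of 64 WT regions (39.1%) met a K562 region, against 45.3 and 35.9%. The MTA1 locus held 9 of the BCL11A regions, and without it 8 of 23 were overlapped in K562, 11 of 23 in 195C>G and 16 of 23 in WT (34.8, 47.8 and 69.6%). Intervals cover counting error only, and regions of 1 locus are not independent.

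When overlapping regions of all lists were joined, the loci held 71 sites. BCL11A was at 29 of them, with a ZBTB7A region at 17 and without one at 12. Of these 12, 8 were at MTA1, 3 at GATAD2A and 1 at CHD4. All 4 lists had a region in 5 of the joined sites, namely the promoters of MTA2, MBD2 and MBD3, the EML3 and ROM1 promoter site and the site past HDAC1. Of the 43 sites found in a single list, 20 were in WT, the longest list. Joined sites were not counted across the genome, so these counts describe the loci and cannot be set beside a share over all genes.

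Last, the 195C>G and WT lists were compared at these genes. In the 195C>G list, 28 of the 64 WT regions had a counterpart by overlap (43.8%, 31.4 to 56.7%), against 54.3% of all WT regions and 38.9 regions predicted from their deciles of WT rank. In the WT list, 23 of the 27 195C>G regions had one (85.2%, 66.3 to 95.8%), against 89.3%. The shortfall lay at MBD3, with 4 of 16 overlapped and 9.39 predicted, and GATAD2A, with 9 of 22 and 14.0. Both are on chromosome 19, where 40.0% of all WT regions were overlapped, against 56.1% elsewhere. At the other loci 15 of 26 were overlapped, with 15.5 predicted. By position, 8 of 11 promoter regions were overlapped with 8.81 predicted, and 10 of 23 gene body regions with 12.5 predicted. Of flank regions 10 of 30 were overlapped with 17.6 predicted, so most of the shortfall was in flanks. Of these 30, 11 were at MBD3 and 4 at GATAD2A, so position was not separated from these loci. Each arm is 1 library and no depth is known, so gain or loss of a region cannot be told apart from uneven detection.

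Other corepressor genes were taken as a comparison, 37 in all from 4 lists. BCL11A had a promoter region at 16 of them (43.2%), ZBTB7A at 22 in K562 (59.5%), 21 in 195C>G (56.8%) and 29 in WT (78.4%). The 10 NuRD members, at 60.0, 80.0, 70.0 and 70.0%, were thus above these in 3 lists and below in WT. The 8 further NuRD genes stood at 25.0, 37.5, 50.0 and 87.5%, so the contrast depends on where NuRD genes were placed. In the stronger 50% of the lists the NuRD genes had 2 of 10 for BCL11A against 8 of 37, 7 in K562 against 16, 6 in 195C>G against 13 and 7 in WT against 22. The NuRD share was then slightly below the other for BCL11A and above it in WT, so both of these directions turned. No test of the difference was made. Among other genes of NuRD, which include the histone-binding subunits RBBP4 and RBBP7 and the CHD4 relative CHD3, BCL11A was at 2 of 8, K562 at 3, 195C>G at 4 and WT at 7. RBBP4 had a region in WT and in no other list. The SIN3 complex, another deacetylase complex, had 7, 8, 6 and 8 of 13 genes bound in the same order. The CoREST complex, built around the demethylase KDM1A, had 5, 9, 8 and 9 of 10, and the NCoR complex, which carries the deacetylase HDAC3, 2, 2, 3 and 5 of 6.

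Among bound promoters, the median rank of the NuRD genes for BCL11A was 84.2% of the list, against 47.0% for the other corepressor genes, so the NuRD promoters stood lower. The medians were 23.3% against 25.0% in K562, 17.6% against 41.0% in 195C>G and 3.15% against 22.8% in WT. The single best promoter of the 10 members nevertheless outranked the best of these 37 in each list. For BCL11A this was GATAD2A at rank 1020, ahead of ZMYND8, a further NuRD gene, at 2068, ARID4B at 2326 and KDM1A at 2410. In K562 MTA2 at rank 44 stood ahead of ING2 at 697 and TBL1X at 1347. In 195C>G MTA2 at rank 306 stood ahead of RCOR2 at 2758 and RCOR1 at 3142. In WT HDAC2 at rank 358 stood ahead of HMG20B at 2105, RCOR1 at 2528 and SAP30L at 3004.

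**Figure D3:**
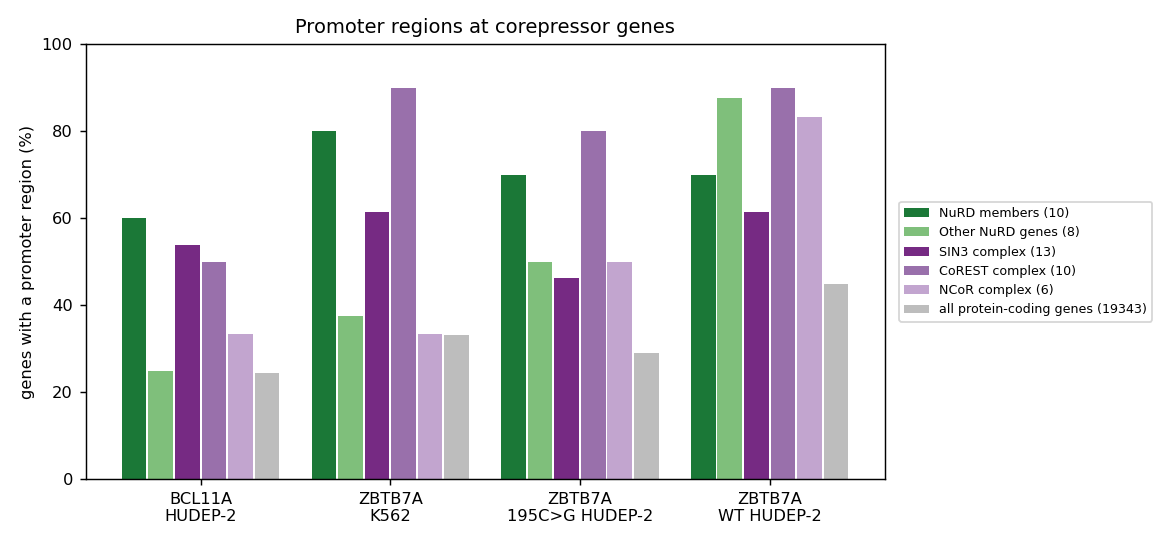
Percentage of genes with a promoter region, by gene list (number of genes in brackets) and peak list. The NuRD genes stand at 60.0, 80.0, 70.0 and 70.0%, against 24.4, 33.2, 29.1 and 44.9% for all protein-coding genes, and no error bars are drawn because each list is a fixed set of genes in 1 peak list.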

How the data were processed

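Per the submitters' processing notes, trimming used Trimmomatic 0.3.2, alignment Bowtie2 2.2.9 and the build was GRCh38/hg38; Bowtie, Picard and bedtools are named too, without a role. Of the 4 lists deposited, those for BCL11A and K562 combine replicates by the irreproducible discovery rate, and those for 195C>G and WT were called by SPP in 1 library each, per the labels. The authors' BCL11A values are a score of unstated scale. The deposited 195C>G and WT lists give a signal, a −log10 false discovery rate and a summit. The deposited K562 list gives positions only, and its file order was taken as rank, which could not be checked.

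Regions were limited to standard chromosomes, identical ones were counted once and overlapping ones kept apart. A region was placed by its summit, or by its midpoint where none is given. Gene positions on chromosome 11 past HBG1 were raised by 4928 bp for the hg38 lists, the most frequent difference from RefSeq (529 of 1340 genes), which put the MTA2 start 25 bp from that of RefSeq. Overlaps (at least 1 bp) were counted by distance from the gene start at the members, and without chromosome 11 across the genome where builds differ. Predicted counts sum the overlapped share of each WT region's decile of rank. Python 3.11.15 and pandas 2.3.3 were used, and overlap counting was tested on simulated regions. No test was run, since no replicate values exist. The members and gene lists were chosen with earlier results of these data known. All 10 members were named, with the 3 best-ranked other corepressor genes per list (1 is not reported here) and neighbours with a promoter region in the first 10% of a list. CRIP2 and RBBP4 were named after their values were seen.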

Additional observations from a re-analysis of the deposited data

How the results depend on the processing

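No paired analysis was possible because the lists pool replicates or hold 1 library, so no replicate could be left out either. Of 60 alternative values of 16 results, 44 stayed within 1.5 times the main value. With the stronger 50% of the lists, BCL11A promoters fell to 2 of 10, without CHD4, MTA2, HDAC1 and MBD2, regions at the loci numbered 20 for BCL11A, 14 in 195C>G and 41 in WT, and WT regions overlapped in 195C>G numbered 14 of 41. With 50 kb on each side, the loci held 55 K562, 41 195C>G and 106 WT regions. Without the chromosome 19 loci, 15 of 26 WT regions were overlapped. Reciprocal overlap of at least 50% left 5 BCL11A regions overlapped in K562, 3 in 195C>G and 8 in WT. This setting depends on width as well as position. Median widths were 370 bp for BCL11A, 349 in K562, 600 in 195C>G and 644 in WT. A BCL11A region narrower than 50% of a ZBTB7A region could not pass, and no whole-list share is given for this setting. Among genes with a promoter region in at least 1 list, the shares bound were 44.5% for BCL11A, 60.5% in K562, 53.1% in 195C>G and 81.7% in WT. The members' promoter counts elsewhere were 6 or 7 for BCL11A, 7 or 8 in K562, 5 to 7 in 195C>G and 7 in WT. The WT list limited to the length of the 195C>G list gave 24 of 43 overlapped. This limit, leaving out chromosome 11 from the gene shares and leaving out the MTA1 locus were chosen after seeing the data. No whole-list share is given for the 24 of 43 or the 14 of 41, so neither compares with the 54.3% of all WT regions. That share fell with rank, from 96.0% in decile 1 to 55.1% in decile 5 and 23.8% in decile 10. Read depth is unknown, so a region not listed is not shown to be unbound.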
